A study of Drosophila melanogaster with 4 samples.

Results

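The regions described here are the HP1a-enriched clusters on the distal part of chromosome arm 2L of Drosophila melanogaster, taken as all combined-set clusters whose midpoint lies at or below position 21011544 on FlyBase r5, more than 2 Mb from the proximal (centromere-side) end of the arm. The rule gave 516 of the 5583 enriched clusters of the combined set, called members below. In the same span lay 271 of the 3564 clusters of ChIP replicate 1 and 282 of the 4467 clusters of ChIP replicate 2. The chromatin came from head nuclei of mixed adult flies of the wild-type strain Oregon-R, raised in population cages, crosslinked with formaldehyde and precipitated with the antibody wa191 against HP1a. The series has 2 ChIP libraries, each with its own input library, and no other tissue, genotype or antibody. Nothing in the labels ties the replicates to separate cages of flies, and the SD over the 2 ChIP libraries given below may measure technical spread alone. A list of regions holds no marker of head tissue, and the labelled tissue was not checked here.

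HP1a is the chromodomain protein of fly heterochromatin. It binds histone H3 tails that are methylated at a lysine, recruits the methyltransferases that write this mark, and so lies in long continuous domains near centromeres and on the small chromosome 4. On the euchromatic arms it is known from isolated sites, among them transposon insertions, blocks of repeats, telomeres and a set of active genes, and staining of polytene chromosomes has long shown an interstitial band of HP1a on 2L. Genes are not named below because no annotation on r5 was used here, and no sequence is printed for the same reason.

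Distal 2L was thinly covered in both replicates, and to nearly the same extent. Replicate 1 covered 3.62% of the 21.0 Mb span (760.0 kb) and replicate 2 covered 3.80% (799.3 kb), which average 3.71% ± 0.132 (SD, n = 2). The number of clusters was 276.5 ± 7.78 (SD, n = 2). The median cluster of replicate 1 was 2106 bp long (interquartile range 1591 to 3214 bp) and that of replicate 2 was 2141 bp long (1585 to 3074 bp). Most clusters on distal 2L were therefore a few kilobases long, and in each replicate 5 reached 10 kb. The scores, whose scale the sources used here do not give, were low within each list: 20 clusters of replicate 1 and 33 of replicate 2 reached the median score of their whole list. Low scores were not particular to distal 2L, whose median scores were 0.69 in replicate 1 and 0.67 in replicate 2. On distal 2R, 3L and 3R the medians were 0.67 to 0.69 and 0.67 to 0.68, and on distal X 0.86 and 0.84.

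The combined set, made by the authors from both replicates, was wider than either list. Its 516 members covered 1338 kb, or 6.37% of the span. The shortest was 1001 bp, the median 1902 bp and the longest 25913 bp. Their scores ran from 0.11 to 3.09 with a median of 0.49, and 389 members scored under 0.6. Both replicates had clusters over 42.9% of the combined bases, a single replicate over 28.6% and neither over 28.4%. The depth of the libraries is unknown, so a member that a replicate lacks may still be bound there.

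Replicate support followed length. A member is called supported below when each replicate covered at least 50% of its bases. There were 166 supported members, or 32.2%, where the background over all 3559 combined-set clusters of the distal 2L, 2R, 3L, 3R and X was 28.2%. The supported members had a median length of 2823 bp and a median score of 0.67, against 1523 bp and 0.46 for the other 350 members. By simple contact, 191 members met clusters of both replicates, 55 met replicate 1 alone, 75 met replicate 2 alone and 195 (37.8%, where the background was 37.8%) met neither. Members met by neither were short, with a median of 1265 bp, and 109 of them were shorter than 1301 bp, the shortest cluster of either replicate list. Of all 117 members under 1301 bp, 0 were supported, and how far the shortest length in the replicate lists shapes this was not tested. Of 167 members from 1301 bp to under 2000 bp, 21 were supported. The count was 68 of 119 from 2000 bp to under 3000 bp, 41 of 73 from 3000 bp to under 5000 bp, 28 of 32 from 5000 bp to under 10000 bp, and 8 of 8 at 10 kb or more. Support of long clusters was not particular to distal 2L. At 10 kb or more it was 11 of 11 on distal 2R, 8 of 10 on 3L, 1 of 3 on 3R and 29 of 31 on X. The shorter classes were not set against the other arms. The sources used here do not say how the combined set was made, and since it represents these replicates, their support is not taken as an independent test of a member.

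**Figure D1:**
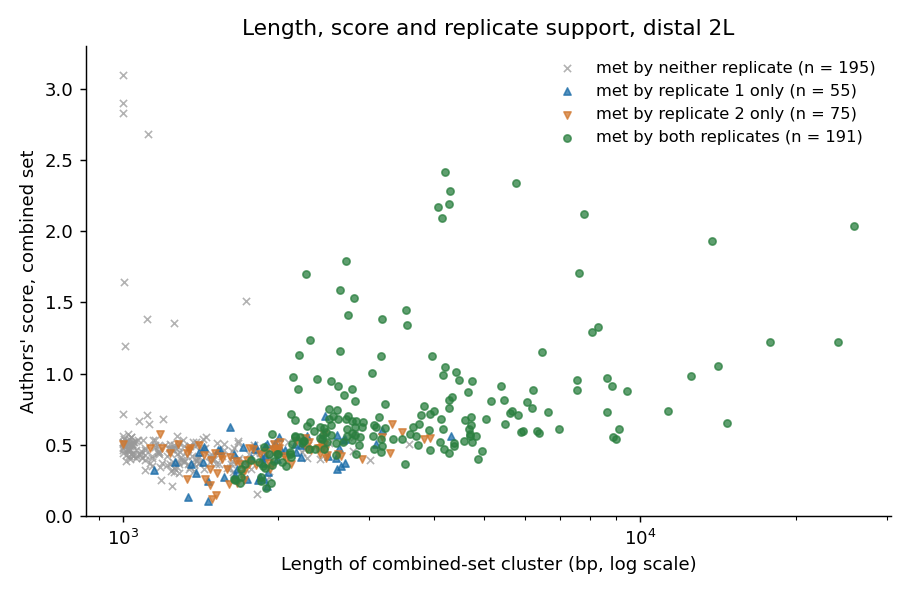
Length (horizontal, bp, log scale) and the authors' score (vertical) of the 516 members, one point each, by which replicate lists they met. Members met by neither replicate lie at short lengths, with 4 of them above a score of 2, and every member of 5 kb or longer met at least 1 replicate.

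Support did not rise steadily with score. All 30 members with a score from 0.75 to under 1 were supported, as were 72 of 167 from 0.5 to under 0.75 and 14 of 166 from 0.4 to under 0.5. The count was 18 of 21 from 1 to under 1.5 and 6 of 8 from 1.5 to under 2. Among the 12 members scored 2 or more the count was 8, and the other 4 met neither replicate. Those 4 were the highest-scored members of all, at 10593300 to 10594300 (1001 bp, score 3.09), 10947964 to 10948964 (1001 bp, score 2.90), 17335622 to 17336622 (1001 bp, score 2.83) and 11567394 to 11568514 (1121 bp, score 2.68). The next of the same kind was 1007 bp at 12073476 to 12074482, with a score of 1.64. These regions had a high score in the combined set and no cluster in either replicate, so neither replicate list gives a score for them. They were all shorter than 1301 bp, the shortest cluster of either replicate list, and 0 of the 117 members that short were supported.

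The 5 highest-scored supported members were of a different form. The first lay at 6992616 to 6996814 and scored 2.42, followed by 10403372 to 10409120 with 2.34, 16513680 to 16517970 with 2.28, 12559500 to 12563770 with 2.19 and 7409240 to 7413310 with 2.17. They were 4071 to 5749 bp long, and each matched 1 cluster of each replicate. At the first of them replicate 1 had a cluster from 6992667 to 6996763 with a score of 2.35 and replicate 2 one from 6992616 to 6996732 with a score of 2.52. The edges of the replicates there differed by 51 bp on the tip side and 31 bp on the centromere side. The member at 12559500 stood by itself, 104.0 kb from the member before it and 297.5 kb from the one after.

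Across the arm, the edges of clusters matched 1 to 1 lay close together in the replicates. Of the members, 165 matched exactly 1 cluster in each replicate, and these clusters met no other combined-set cluster. Clusters split or joined between the lists are thus left out. Over the 330 edges of the 165 members the replicates differed by a median of 172 bp. The interquartile range of the differences was 67.5 to 379 bp, 112 edges lay within 100 bp of each other and 28 differed by more than 1000 bp. The median was 110.5 bp for the 28 such members with a score of 1 or more and 183 bp for the 137 with a lower score. The lengths of the paired clusters rose together, with a Spearman's rho of 0.76 across these 165 members, which share libraries and are not independent.

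The scores of the replicates also rose together over distal 2L. Across the 191 members met by both, Spearman's rho was 0.79 and Pearson's r was 0.90, given as a description because regions of 1 pair of libraries are not replicates. Within each replicate list, longer clusters scored higher, with a rho of 0.73 for replicate 1, 0.75 for replicate 2 and 0.48 for the combined set. Of the clusters of replicate 1, 207 of 271 (76.4%) met a cluster of replicate 2, and 202 of 282 (71.6%) did so in the opposite direction. The clusters that met none were shorter, with a median of 1573 bp against 2310 bp for those that did in replicate 1, and 1623 bp against 2423 bp in replicate 2.

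**Figure D2:**
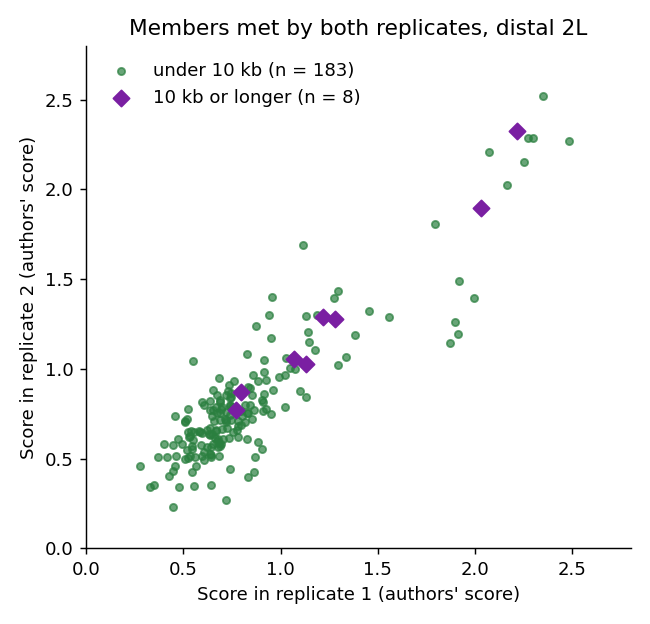
Authors' score in replicate 1 (horizontal) and replicate 2 (vertical) for the 191 members met by both, each as the length-weighted mean of the replicate clusters in it. Most points lie under a score of 1 in both lists, and the 8 members of 10 kb or longer (diamonds) are spread from 0.77 to 2.33.

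Coverage along the arm was uneven, and most windows ranked alike in the replicates. Over 21 windows of 1 Mb, counted from the tip, coverage ran from 1.03% to 9.67% in replicate 1 (median 2.95%) and from 1.07% to 8.46% in replicate 2 (median 3.52%), with a Spearman's rho of 0.91 between the replicates. The 2 densest windows were 10 to 11 Mb, at 9.67% and 8.46%, and 20 to 21 Mb, at 9.01% and 8.17%. Next came 6 to 7 Mb, at 5.62% and 7.04%, and 5 to 6 Mb, at 5.37% and 6.30%. Coverage was thin over 13 to 16 Mb, whose 3 windows averaged 1.23% in each replicate and held 17 clusters of each. It held 47 members, 8 of them supported. The window at 1 to 2 Mb was as thin, at 1.03% in replicate 1, the lowest there, and 1.33% in replicate 2, where the lowest was 14 to 15 Mb at 1.07%. The replicates differed most in rank at 4 to 5 Mb, which was covered to 4.39% in replicate 1 (rank 6 of 21) and to 2.70% in replicate 2 (rank 14).

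**Figure D3:**
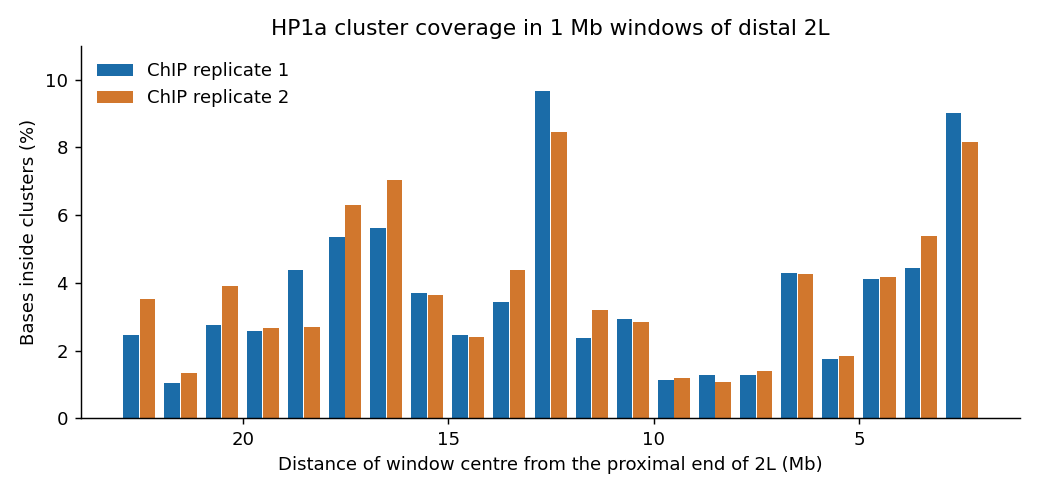
Share of bases inside clusters (vertical, %) in 21 windows of 1 Mb, placed by the distance of the window centre from the proximal end of 2L (horizontal, Mb, tip at left). The 2 tallest pairs of bars are the windows 10 to 11 Mb (9.67% and 8.46%) and 20 to 21 Mb (9.01% and 8.17%), and low bars stand at 1 to 2 Mb and over 13 to 16 Mb.

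The tip of the arm held a small group of members. The first member lay at 5046 to 6134 (score 0.41) and met neither replicate. Within the outermost 50 kb, 6 members lay between 5046 and 33660, of which 2 were supported, at 17604 to 20090 (score 0.52) and 20326 to 24144 (score 0.77). Replicate 1 covered 15.2% of these 50 kb and replicate 2 covered 19.1%. The first 1 Mb had 40 members, more than the 38 of the window at 10 to 11 Mb, but 21 of the 40 met neither replicate and 6 were supported. The replicates covered 2.45% and 3.52% of this first 1 Mb.

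The window at 10 to 11 Mb, singled out for its density in earlier results of these data, took up 4.76% of the span and held 12.7% of the covered bases of replicate 1 and 10.6% of those of replicate 2. Its coverage relative to the rest of distal 2L was 2.92 in replicate 1 and 2.37 in replicate 2 (mean ratio 2.64 ± 0.389, SD, n = 2). It held 38 members with a median length of 2632 bp, and 21 of them (55.3%) were supported. In the rest of distal 2L the median was 1872 bp and 145 of 478 members (30.3%) were supported. The window was chosen from these data, so no test is given.

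Within this window the clusters were crowded into the 300 kb from 10200001 to 10500000, bounds set after seeing the data. Replicate 1 covered 24.5% of these 300 kb and replicate 2 covered 19.1%, against 3.34% and 3.91% of the remainder of the window. The 100 kb before it, from 10100001 to 10200000, had no cluster in any list. The 300 kb held 23 members, of which 15 met both replicates, 5 met replicate 1 alone, 1 met replicate 2 alone and 2 met neither. The crowding was thus made of many separate clusters with uncovered sequence between them, unlike a continuous block.

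Of the 5 members of 5 kb or longer in the window, 3 lay in that crowded part. The member at 10226250 to 10240020 was 13.8 kb long with a score of 1.93. Replicate 1 split it into clusters of 7093 bp (score 1.68) and 5731 bp (score 2.46), and replicate 2 had 1 cluster of 13654 bp (score 1.90). The member at 10349390 to 10357692 (8303 bp, score 1.33) was covered to 85.6% and 85.2%, and that at 10403372 to 10409120 (5749 bp, score 2.34) to 95.2% and 98.9%. The other 2 long members of the window lay at 10842488 to 10847634 (5147 bp, score 0.81), covered to 70.0% and 98.4%, and at 10982926 to 10989382 (6457 bp, score 1.15), covered to 84.4% and 79.6%.

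**Figure D4:**
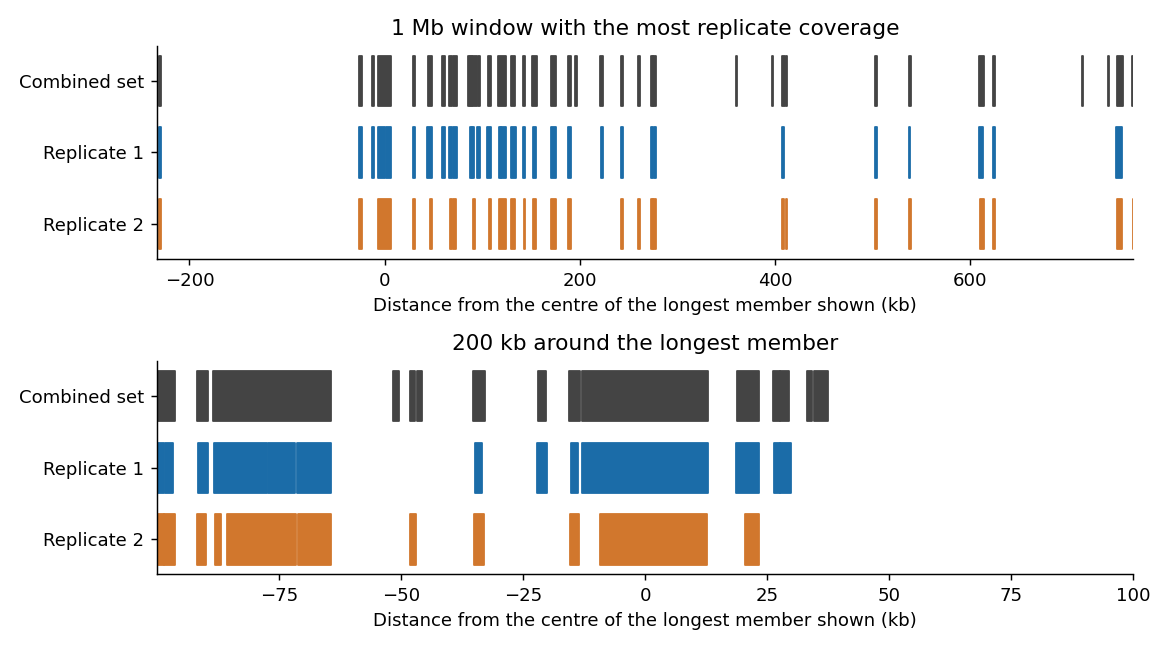
Clusters of the combined set and of each replicate drawn as bars, in the window at 10 to 11 Mb (top) and in the 200 kb around the longest member (bottom); the horizontal axis is the distance in kb from the centre of the longest member shown. The top panel shows many separate short clusters in the 300 kb from 10200001 to 10500000, and the bottom panel a pair of long islands of 24.2 and 25.9 kb.

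The 2 longest members of distal 2L both lay near 20 Mb, with shorter members between them. The longest ran from 20172692 to 20198604 (25.9 kb, score 2.04), and replicate 1 had it as 1 cluster from 20172689 to 20198509 (score 2.22). Replicate 2 also had 1 cluster, from 20176411 to 20198320 (21.9 kb, score 2.33), which began 3722 bp further in on the tip side and ended 189 bp earlier on the centromere side. The second ran from 20097174 to 20121346 (24.2 kb, score 1.22) and was covered to 96.4% and 91.7%. Each replicate split the second into 3 clusters: replicate 1 into 10.8, 5.55 and 6.93 kb with scores of 1.34, 1.30 and 1.18, and replicate 2 into 1.32, 14.1 and 6.75 kb with scores of 0.54, 1.48 and 1.00. The longest member was therefore 1 cluster in each list and higher in score within each, while the second was 3 clusters in each. The breaks of the second were short, at 20108150 to 20108352 and 20113905 to 20114365 in replicate 1. In replicate 2 they lay at 20098740 to 20099943 and 20114039 to 20114547. The longest member was covered to 99.6% and 84.6%, so replicate 2 covered less of it than of the second.

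Around these islands lay a wider patch. The 200 kb centred on the longest member, from 20085649 to 20285648, were covered to 33.6% and 28.8% in replicates 1 and 2, on average 31.2% ± 3.36 (SD, n = 2). They make up 0.952% of the span and held 8.84% and 7.22% of its covered bases. The stretch held 15 members, of which 7 met both replicates, 3 met replicate 1 alone, 1 met replicate 2 alone and 4 met neither. Apart from the islands, the longest members were 4647 bp at 20084708 to 20089354 (score 0.87), covered to 84.2% and 98.8%, and 4597 bp at 20204458 to 20209054 (score 0.67), covered to 97.3% and 63.5%. The member at 20150338 to 20152862 (score 0.95) was covered to 54.4% and 77.8%, those at 20093782 to 20096006 (score 0.51) to 90.7% and 88.8% and those at 20170144 to 20172380 (score 0.53) to 64.9% and 79.0%. The remaining 8 members were 1001 to 2817 bp long with scores of 0.37 to 0.67, and none of them met both replicates. The 100 kb next to the stretch were covered to 5.64% and 9.51% on the tip side and to 2.21% and 1.68% on the centromere side.

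Distal 2L held 6 further members of 10 kb or longer, so that 8 of 516 were supported members of this size, where the background over the 5 distal arms was 1.6%. A pair lay at 5.1 Mb, from 5157770 to 5175576 (17.8 kb, score 1.22) and from 5126696 to 5139250 (12.6 kb, score 0.98). Each was 1 cluster in both replicates, with scores of 1.22 and 1.29 for the longer member and 1.07 and 1.05 for the shorter. The member at 12441350 to 12455480 (14.1 kb, score 1.05) was 1 cluster of 14.1 kb in replicate 1 and clusters of 7.20 and 6.23 kb in replicate 2. The member at 16776498 to 16791230 (14.7 kb, score 0.65) was the least covered of the 8, at 52.1% and 68.1%, in 2 and 3 pieces. That at 9920108 to 9931420 (11.3 kb, score 0.74) was covered to 74.7% and 98.0%, in 3 and 2 pieces, and that at 10226250 was described above. Among all 40 members of 5 kb or longer, 36 were supported and 25 were 1 cluster in each, and together the 40 held 26.6% of the member bases. The same count was not made on the other arms.

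Many members stood in groups with wide empty sequence between them. The median gap between neighbouring members was 9827 bp, the interquartile range was 2161 to 33200 bp, and 84 gaps were under 1000 bp. These values take in members that neither replicate met. Between neighbouring supported members the median gap was 30893 bp, and 46 gaps were under 10 kb, against 261 over all members. When members under 10 kb apart were joined, 255 groups formed, of which 148 were single members and 23 had 5 or more members, 155 members in all. The largest by number had 14 members from 4484178 to 4530872, but 9 of them met neither replicate and replicates 1 and 2 covered 21.3% and 11.8% of it. The group from 5126696 to 5186248, which holds the pair of long members at 5.1 Mb, had 7 members of which 6 were supported, and 64.7% and 67.1% of its 59.6 kb was covered. The 2 groups that hold the islands near 20 Mb ran from 20059204 to 20121346 (9 members, 54.7% and 60.1% covered) and from 20163704 to 20223052 (8 members, 62.8% and 44.8% covered).

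Stretches of over 100 kb with no cluster in any list numbered 66 and made up 59.4% of the span. The longest, of 498.4 kb, ran from 16837211 to 17335621. The next was 422.2 kb long, from 17555747 to 17977909, followed by 409.7 kb from 1303129 to 1712782, 363.4 kb from 8964473 to 9327881 and 350.2 kb from 15074665 to 15424895. The longest ended at the 1001 bp member of score 2.83 that neither replicate had. The eighth longest, from 19740386 to 20059203 (318.8 kb), directly preceded the patch near 20 Mb.

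A few replicate clusters had no counterpart in the combined set. There were 5 in replicate 1 and 1 in replicate 2, all 1341 to 1759 bp long. In replicate 1 the longest of them, at 19738627 to 19740385, had a score of 2.61, the highest of any replicate 1 cluster on distal 2L, and replicate 2 had no cluster there. The others of replicate 1 lay at 11809305 (1554 bp, score 0.39), 16702762 (1453 bp, score 0.25), 5245977 (1344 bp, score 0.50) and 3776839 (1341 bp, score 0.60), and that of replicate 2 at 3047053 (1355 bp, score 0.77).

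At the proximal limit the last member ran from 20930874 to 20933480 (2607 bp, score 0.43) and was met by replicate 2 alone. The next combined-set cluster past the limit, at 21052794 to 21054106 (1313 bp, score 0.30), met neither replicate. The limit thus lay in thinly covered sequence, 78.1 kb after the last member and 41.2 kb before the next cluster. The 106 clusters of 2L past it had a median score of 0.75 and a median length of 2720 bp.

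Set beside the distal parts of the other arms, 2L was covered about as much as 3L, more than 3R and less than 2R and X. Coverage was 3.71% ± 0.132 on distal 2L, 3.47% ± 0.407 on distal 3L, 2.76% ± 0.434 on distal 3R, 5.09% ± 0.6001 on distal 2R and 8.89% ± 2.34 on distal X (SD, n = 2 each). Within each library the ratio of distal 2L to distal 3L was 1.14 and 1.01, to distal 3R 1.47 and 1.24, to distal 2R 0.775 and 0.690, and to distal X 0.5001 and 0.361. The difference from 3L, 0.240 ± 0.275 percentage points (SD, n = 2), was within the spread of the replicates. The differences from 3R (0.951 ± 0.302 percentage points), 2R (-1.38 ± 0.468) and X (-5.17 ± 2.21) were larger than that spread (SD, n = 2 each). Against the other 4 distal arms as a whole, distal 2L was covered to 3.62% where they were covered to 4.23% in replicate 1, and to 3.80% against 5.51% in replicate 2, for a mean ratio of 0.773 ± 0.116 (SD, n = 2). With X left out the mean ratio was 1.02, from 1.09 for replicate 1 and 0.953 for replicate 2, which lay on opposite sides of 1. The comparisons with 3L, 3R, 2R, X and the other 4 arms as a whole each gave p = 0.5 in an exact two-sided permutation test over the 2 libraries. This is the smallest p that 2 libraries allow, so none can pass a threshold. The comparison with X left out was not tested.

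The replicates lay closest to each other on 2L. Replicate 2 had 1.04 times as many clusters as replicate 1 on distal 2L, against 1.21 times on 3L, 1.30 times on 3R, 1.27 times on 2R and 1.48 times on X. The Jaccard index of covered bases, shared over all covered, was 0.583 on distal 2L, against 0.493 on 3L, 0.499 on 3R, 0.546 on 2R and 0.496 on X. The share of supported clusters was 32.2% on distal 2L, where the background over the other 4 distal arms was 27.6%. By arm this share was 30.0% on 2R, 29.1% on 3R, 26.8% on X and 24.7% on 3L. Spearman's rho of the replicate scores was 0.79 on distal 2L and 0.78 on 2R, against 0.75 on 3R, 0.74 on 3L and 0.64 on X. The difference between the arms was not tested, since clusters of 1 pair of libraries are not replicates.

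**Figure D5:**
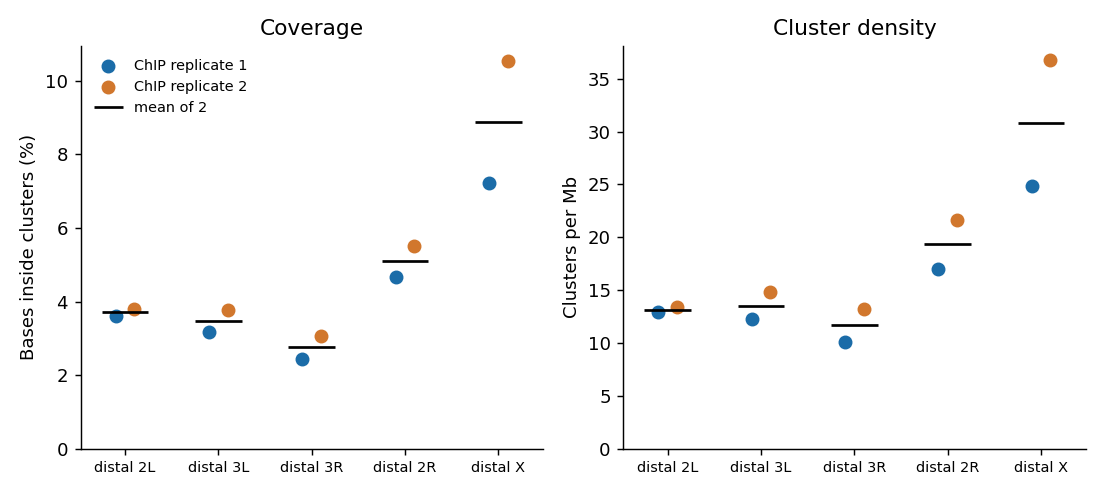
Share of bases inside clusters (left, %) and clusters per Mb (right) on the distal part of each arm; points are the 2 ChIP replicates and the line their mean. The 2 points of distal 2L, 3.62% and 3.80%, lie closer together than those of any other arm, and the mean of 2L is near that of 3L.

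In windows of 1 Mb, the densest part of 2L was high among the autosomes too. The window at 10 to 11 Mb ranked 2 in replicate 1 and 3 in replicate 2 among 87 autosomal windows, and that at 20 to 21 Mb ranked 3 and 4. The 66 windows of 2R, 3L and 3R had a median of 2.88% in replicate 1 and 3.39% in replicate 2 and a highest value of 14.8% and 15.5%. The 2L windows ranked here are the 2 densest of distal 2L, so high ranks and values above that median follow in part from the choice. Both lay below the densest of those windows, and the ranks are given as a description. With 107 windows including those of X, the window at 10 to 11 Mb ranked 6 and 16, and that at 20 to 21 Mb ranked 9 and 17.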

How the data were processed

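HP1a was measured by ChIP-seq in 2 libraries, each set by the authors against its own input. Bowtie 0.12.7 was among the tools, per the submitters' processing notes, and coordinates are on FlyBase r5, per the file headers. Not given in the sources used here are the caller, its threshold, the handling of reads with several matches and how both replicates became 1 set. The deposited score per cluster is the authors' own measure, above 0 for enriched regions, and was used to describe, rank and filter clusters within a list. Every start and end of the 5583 combined-set clusters is an even number, while 926 of 3564 and 1121 of 4467 replicate clusters have even ones at both ends, so the combined set was not cut from the replicate coordinates as they stand. No read counts were in these lists, so depth is unknown and no counting interval is given.

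Coverage is the share of bases inside clusters. A member was counted as supported when at least 50% of it lay inside clusters of each replicate, and a replicate score within a member is the length-weighted mean. The members, windows and lists were chosen with earlier results of these data known. Regions were named by length (10 kb or more, or 5 kb or more at 10 to 11 Mb), by score (the 5 highest with support and the 5 highest met by neither replicate), and by place (around the longest member, at both ends, outside the combined set and the 5 longest empty stretches). The 300 kb part of the window, the group from 4484178, the group at 5.1 Mb, the tip members and the eighth longest empty stretch were named after their values were seen. The functions were tested on simulated lists with known answers. Alternatives changed the score cut, the 2 Mb limit, the merging, length and overlap rules and the windows, or used each replicate alone. Python 3.11.15, numpy 2.4.6, pandas 2.3.3 and scipy 1.17.1 were used.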

Additional observations from a re-analysis of the deposited data

How the results depend on the processing

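Of 39 alternatives, 23 held, 14 moved and 2 reversed. An untested value held if it stayed within 1 SD of the replicates, a count if it stayed within 1.5 times, and the ratio to the other arms if it kept its direction. With 2 replicates, each lies within 1 SD of their mean by construction. Coverage and the window ratio therefore had to hold with each replicate alone. Leaving out members shorter than any replicate cluster also had to hold, since none of them was supported. These settings count among the 23 but show nothing about robustness. A correlation has no spread over replicates here, and each other value of it was counted as moved. Both reversals depend on what was compared: the ratio of distal 2L to the other distal arms, 0.773, became 1.02 without X (1.09 in replicate 1 and 0.953 in replicate 2, so that the direction turned in replicate 1 alone), and the ratio of the 10 to 11 Mb window to the rest of distal 2L, 2.64, became 0.918 (0.770 in replicate 1 and 1.07 in replicate 2) when the window was moved 0.5 Mb towards the centromere, which by construction leaves out the crowded 300 kb. Moved 0.5 Mb towards the tip it was 3.14. With a stricter list that drops clusters below their list's median score, which by construction removes most distal clusters, coverage of distal 2L was 0.699% in place of 3.71%, with 26.5 clusters per replicate in place of 276.5. In the same setting 18 members were supported in place of 166, the window ratio was 7.06, and the 200 kb around the longest member were covered to 15.8% in place of 31.2%. Coverage of distal 2L was 4.06% with a limit of 1 Mb and 3.47% with 3 Mb. A minimum length of 2000 bp left 154.5 clusters per replicate, and support to at least 80% left 85 members. The Spearman correlation of the replicate scores, 0.79, was 0.85 over supported members alone, 0.77 without members of 10 kb or longer, and Pearson's r was 0.90. With each replicate alone, coverage was 3.62% to 3.80%, the clusters 271 to 282, the members covered to at least 50% 229 to 253, the ratio to the other arms 0.690 to 0.855, the window ratio 2.37 to 2.92 and coverage around the longest member 28.8% to 33.6%. Support in 1 replicate is by construction more frequent than in both. Joining members under 5 kb or 20 kb apart, chosen after seeing the data, gave 313 and 176 groups in place of 255. No paired analysis was possible because no input region list was used, so ChIP and input could not be paired by replicate number. Arms were compared within each library, as given above. Depth is unknown, so an absent cluster does not show absent binding.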

Other observations

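Members of 4 to 4.5 kb fell into 2 ranges of score. Distal 2L had 20 members of this length, of which 5 scored 2.09 to 2.42 and the other 15 scored at most 1.05, with a median of 0.68. The 5 high ones began at 6992616, 7409240, 9975572, 12559500 and 16513680, spread over the arm, and were 4071 to 4291 bp long in the combined set. Replicate 1 had clusters of 3984 to 4229 bp there and replicate 2 of 3366 to 4191 bp. Their edges differed between the replicates by 4 to 165 bp on the centromere side and by 25 to 67 bp on the tip side, except at 7409240, where the tip-side edges were 783 bp apart. Among the 15 others, 9 were supported. The split was noticed in these data and no test is given, and what lies at these positions was not looked up, since no annotation on r5 was used.

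One score value recurred: 8 members of distal 2L shared a score of 0.51 to 6 decimals, where no other value was shared by more than 2. These 8 were 1001 to 2445 bp long, and 4 of them met neither replicate.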
